A study of Homo sapiens with 4 samples.

Results

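The genes described here are NOS1, NOS2, NOS3, ARG1, ARG2, ASS1, ASL, DDAH1, DDAH2 and ODC1, which make, use or regulate the use of the amino acid arginine. They were chosen by name, with earlier results of these data known, and all 10 were found among the 26475 gene symbols of the count tables. RNA was sequenced from mammospheres, floating spheres grown from single cells, of MDA-MB-468, an established cell line of basal-like triple-negative breast cancer. There were 4 conditions with 1 library each, so no condition had a replicate and no difference below could be tested across cultures. The CTL library came from control cells, named as vector control or as control guide in the study, labelled wild type and given no treatment, and the CTL+dox library came from the same cells given doxycycline. The gRNA2 library came from cells with the doxycycline-inducible guide against TCOF1, labelled wild type and given no treatment, and the gRNA2+dox library came from those cells with doxycycline, labelled as the knockout of TCOF1. By the study's methods, the cells of each arm also carried Cas9, were sorted for fluorescent markers of Cas9 and guide, and were pooled from several plates for each library.

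Nitric oxide synthases convert arginine and oxygen to nitric oxide and citrulline, and NOS2 is the form whose transcription is induced by cytokines and bacterial products. Arginases compete for the same arginine and split it to urea and ornithine, and ornithine decarboxylase (ODC1) turns ornithine into putrescine, the first polyamine. ASS1 and ASL rebuild arginine from citrulline, and the DDAH enzymes degrade methylated arginines that inhibit nitric oxide synthases. In cancer cells the pathway is known for ASS1, whose loss leaves cells dependent on arginine from outside, and for NOS2 and ODC1, which have both been studied as drug targets.

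The libraries held between 19960644 (CTL) and 26322847 (gRNA2) reads on genes. TCOF1, the targeted gene, was counted with 1019 reads in CTL and 754 in CTL+dox, against 1318 in the gRNA2 library and 437 in gRNA2+dox. It was lowest in the library labelled knockout, at a log2 ratio of -1.34 to gRNA2 (95% counting interval -1.50 to -1.18) and of -0.74 to CTL+dox (-0.92 to -0.57). The target of gRNA2 is shown because this guide was induced in the knockout library. It is written 5′ to 3′ with the protospacer-adjacent motif in capitals and was matched once on chromosome 5 of GRCh37, on the reverse strand at chr5:149754959-149754981. It lies in the coding part of exon 11 of the 27 exons of the canonical TCOF1 transcript.
gRNA2: gggccggcgcctttccccaaGGG

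The 10 markers of basal breast epithelium summed to between 21259 and 23147 CPM, the scaled count relative to the library total, in the 4 libraries. The 10 markers of white blood cells summed to 156 to 184 CPM. TYROBP was at 0 reads and PTPRC, CD3E and AIF1 were at 3 or fewer in every library. In the same list CD68 (1905 to 3036 reads), CSF1R (1011 to 1433) and CD14 (233 to 280) were clearly counted. The 6 markers of endothelium, where NOS3 is classically made, summed to 14.1 to 16.5 CPM, with CDH5 at 0 and KDR at 257 to 337 reads. The 6 hepatocyte markers, of the cell type that classically makes ARG1, summed to 148 CPM in CTL and 113 in CTL+dox, against 84.8 in the gRNA2 library and 56.8 in gRNA2+dox, with TTR at 0 reads. Of these sums SERPINA1 made up 147, 112, 83.0 and 55.0 CPM. The 6 neuronal markers, of the cells classically marked by NOS1, summed to 84.9 to 91.1 CPM. SNAP25 and ELAVL4 were at 3 reads or fewer, whereas TUBB3 had 1323 to 1794 reads and MAP2 248 to 411. The part of these markers in the values below was not tested. All libraries came from cultures of the MDA-MB-468 line. In RNA from whole cultures, fewer cells that express a gene and less RNA per cell cannot be told apart.

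Expression of the 10 genes spanned from a few reads to 4798 reads in a library. To compare genes with each other, CPM were divided by the exon length in kilobases of each gene's canonical transcript. By the mean of the 4 libraries on this scale, the order was ASS1 (116 CPM per kilobase), DDAH2 (79.3), DDAH1 (35.2), ARG2 (25.5), ODC1 (9.08), ASL (4.29), NOS3 (1.49), ARG1 (0.0984), NOS2 (0.0945) and NOS1 (0.00746). From ASS1 to NOS3, the ranges of neighbouring genes over the libraries did not overlap. ARG1 and NOS2 were not separated, because their counting intervals overlapped in each library. ASS1 and the DDAH enzymes therefore had the highest levels of the 10 genes, and the nitric oxide synthases, with ARG1, the lowest, while ASL, the partner of ASS1, lay below ARG2 and ODC1. Of the 10 genes, 8 had at least 10 reads in at least 1 library and entered the counts of calls, and NOS1 and ARG1 did not.

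Among the nitric oxide synthases, NOS2 was the gene that differed most between the conditions. NOS2 lies on chromosome 17 from 27756766 to 27800529 (GRCh38.p14) on the reverse strand, with 27 exons in its canonical transcript. It was counted with 10 reads in the CTL library and 17 in the CTL+dox library, against 9 in gRNA2, and no read was counted in gRNA2+dox (0.490, 0.755, 0.346 and 0 CPM). The knockout library thus lay below the other three, whose counting intervals overlapped each other. The interval of its level (up to 0.169 CPM) also overlapped that of gRNA2 (from 0.158 CPM). With a floor of 3 reads for the count of 0, or 0.137 CPM in that library, and the reads of the other libraries taken as counted, NOS2 was at least 2.52-fold lower in gRNA2+dox than in gRNA2. On the same terms it was at least 5.49-fold lower than in CTL+dox and at least 3.56-fold lower than in CTL. With the counting error of both libraries included the bounds are smaller, since the 95% counting intervals of these log2 ratios had upper ends of -0.73, -2.00 and -1.26. Between the libraries without the knockout, the log2 ratio was 0.60 for CTL+dox to CTL (-0.58 to 1.91) and -0.48 for gRNA2 to CTL (-1.98 to 0.95), so no difference was detectable at this depth. NOS2 had at most 17 reads in any library, which makes these values the least precise of the genes that entered the counts of calls.

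NOS3, the endothelial synthase, lies on chromosome 7 from 150991017 to 151014588. It was counted with 114 reads in CTL and 137 in CTL+dox, against 197 in the gRNA2 library and 150 in gRNA2+dox (5.58, 6.08, 7.56 and 6.87 CPM). The gRNA2 library was highest and the CTL library lowest, and the knockout library lay between the gRNA2 and CTL+dox libraries. The log2 ratio of gRNA2+dox to gRNA2 was -0.14, and the ratio to CTL was 0.30. The interval of NOS3 left out 0 in 1 of the 5 comparisons, that of gRNA2 to CTL, both without doxycycline, at 0.44 (0.10 to 0.78). NOS3 overlaps ATG9B on the opposite strand over 2380 bases, and ATG9B was counted with 92, 97, 145 and 123 reads in the same order of libraries. The libraries carry no strand information, so reads of the shared bases cannot be told apart between the genes. NOS1, the neuronal synthase on chromosome 12 from 117208142 to 117361626, was counted with 3 reads in CTL and 2 in CTL+dox, against 2 in the gRNA2 library and 1 in gRNA2+dox. All of these lie at or below the 3 reads that a count of 0 allows, and no ratio is given.

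The arginase of these cells was ARG2, the mitochondrial form, whereas ARG1, the cytosolic form of liver, was near the limit of detection. ARG2 lies on chromosome 14 from 67619920 to 67651708. It was counted with 989 reads in CTL and 1097 in CTL+dox, against 1270 in the gRNA2 library and 1075 in gRNA2+dox, which came to 48.4, 48.7, 48.8 and 49.2 CPM. The 4 libraries were level, and the 5 log2 ratios were 0.01 or 0.02. ARG1, on chromosome 6 from 131573226 to 131584329, was counted with 3, 4, 4 and 2 reads in the same order. The interval of its ratio of gRNA2+dox to gRNA2 ran from -4.21 to 2.06, so the depth could not show even a large difference. ARG1 shares bases with MED23 and ARG2 with VTI1B, each on the opposite strand, and MED23 (843 to 1099 reads) and VTI1B (509 to 796 reads) were both transcribed here. ARG2 also lies within the span of GPHN on its own strand, counted with 102 to 168 reads.

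The promoters of the arginases are printed as the sequences beside this contrast, with that of ASS1, the highest gene, for comparison. Each is the 250 bases before the start of the gene in RefSeq (GRCh38.p14), read 5′ to 3′ on the strand of the gene, with every CG pair in capitals. The arginase sequences lie at chr6:131572976-131573225 and chr14:67619670-67619919 and that of ASS1 at chr9:130444457-130444706, all on the forward strand.
ARG1: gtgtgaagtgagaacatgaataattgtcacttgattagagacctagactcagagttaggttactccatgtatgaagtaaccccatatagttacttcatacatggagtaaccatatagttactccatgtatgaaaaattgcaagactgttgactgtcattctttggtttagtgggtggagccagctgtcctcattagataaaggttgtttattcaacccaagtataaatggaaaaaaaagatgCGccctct
ARG2: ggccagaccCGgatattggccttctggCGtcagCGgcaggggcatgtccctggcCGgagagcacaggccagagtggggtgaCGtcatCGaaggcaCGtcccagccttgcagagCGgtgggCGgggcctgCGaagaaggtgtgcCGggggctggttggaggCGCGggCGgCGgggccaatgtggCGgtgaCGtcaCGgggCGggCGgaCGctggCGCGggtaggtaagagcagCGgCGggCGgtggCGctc
ASS1: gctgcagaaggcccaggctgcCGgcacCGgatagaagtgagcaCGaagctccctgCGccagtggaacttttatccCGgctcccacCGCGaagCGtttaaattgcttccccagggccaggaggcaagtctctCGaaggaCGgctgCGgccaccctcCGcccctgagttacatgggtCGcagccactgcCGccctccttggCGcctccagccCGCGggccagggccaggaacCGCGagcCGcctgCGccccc

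The ARG1 sequence held 1 CG pair, the ARG2 sequence 27 and the ASS1 sequence 21. Over all 35116 promoters of 27305 genes in the same collection the median was 11, with quartiles of 3 and 23, so that ARG1 lay below the lower quartile and ARG2 above the upper one. Promoter entries matched 9 of the 10 genes, NOS2 being the gene without one. The other genes near the limit of detection or at low levels also held few or moderate numbers, with 6 for NOS1 and 9 and 10 for the pair of NOS3 starts. Those at higher levels held 22 for ASL, 36 and 38 for ODC1, 23, 11 and 7 for DDAH2, and 5, 36 and 3 for DDAH1, whose entries differ between starts. The E-box CACGTG, a palindrome that reads the same on both strands and is the letter string that MYC and related factors bind, was found in the second ODC1 start and the second ASS1 start. It was present in 6.34% of all promoters. These counts describe the letters and were not related to binding or methylation, which were not measured.

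ASS1, which joins citrulline and aspartate and is the rate-limiting step of arginine resynthesis, was the most abundant of the 10 genes. It lies on chromosome 9 from 130444707 to 130501274. It was counted with 3628 reads in CTL and 4134 in CTL+dox, against 4798 in the gRNA2 library and 3569 in gRNA2+dox (178, 184, 184 and 163 CPM). The knockout library was lowest and the other three lay close together. The log2 ratio of gRNA2+dox was -0.17 to gRNA2 (-0.24 to -0.11), -0.17 to CTL+dox (-0.23 to -0.10) and -0.12 to CTL (-0.19 to -0.05). Between libraries without the knockout, it was 0.05 for both CTL+dox and gRNA2 against CTL. The intervals against the knockout library leave out 0 in all 3 comparisons but hold no spread between cultures.

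ASL, the enzyme that follows ASS1 and releases arginine and fumarate, lies on chromosome 7 from 66075819 to 66093576. It was counted with 176 reads in CTL and 210 in CTL+dox, against 244 in the gRNA2 library and 206 in gRNA2+dox (8.62, 9.32, 9.37 and 9.43 CPM). The CTL library was lowest and the other three were nearly level, at log2 ratios of 0.01 for gRNA2+dox to gRNA2 (-0.26 to 0.28) and 0.02 to CTL+dox. The interval of ASL is wide enough to hold the ratio seen for ASS1, so the depth does not separate the pair.

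The dimethylarginine hydrolases were both well expressed. DDAH1, on chromosome 1 from 85318485 to 85578200, was counted with 2754 reads in CTL and 3292 in CTL+dox, against 3651 in the gRNA2 library and 2927 in gRNA2+dox (135, 146, 140 and 134 CPM). CTL+dox was the highest library, and gRNA2+dox lay with CTL. The log2 ratio of CTL+dox to CTL was 0.12 (0.04 to 0.19), and the ratio of gRNA2+dox to gRNA2 was -0.06. DDAH2, on chromosome 6 from 31727040 to 31730263 within the major histocompatibility complex, was counted with 1867, 2191, 2367 and 2154 reads in the same order (91.4, 97.3, 90.9 and 98.6 CPM). The libraries with doxycycline were higher than those without, in both arms. The log2 ratio of gRNA2+dox to gRNA2 was 0.12 (0.03 to 0.20), and that of CTL+dox to CTL was 0.09.

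ODC1, which makes putrescine and is the rate-limiting enzyme of polyamine synthesis, had its largest ratio in the comparison of CTL+dox with CTL. It lies on chromosome 2 from 10439968 to 10448327. It was counted with 410 reads in CTL and 626 in CTL+dox, against 503 in the gRNA2 library and 497 in gRNA2+dox (20.1, 27.8, 19.3 and 22.8 CPM). CTL+dox was highest, gRNA2+dox second, and the libraries without doxycycline lowest. The log2 ratio of CTL+dox to CTL was 0.47 (0.29 to 0.65), and that of gRNA2+dox to gRNA2 was 0.24 (0.06 to 0.42). Against CTL+dox, the knockout library was lower, at -0.29 (-0.46 to -0.12), and against CTL it was at 0.18 (-0.01 to 0.37). The sign of the ODC1 difference in the knockout library therefore depends on which library is taken as the control.

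A gene was called lower where its log2 ratio was below -1 and a counting-error bound, the 1% or 99% quantile of the ratio that is nearer 0, was below -0.5, and higher with the signs turned. Of the 8 genes, NOS2 alone was called lower in gRNA2+dox against gRNA2, beside 0.270% of the 15204 genes tested. NOS2 met the minimum of 10 reads through CTL and CTL+dox, where it was high, and not through either library of this comparison. It alone was called lower against CTL+dox, beside 0.980% of all genes, and against CTL, beside 0.796%. The 3 comparisons share the gRNA2+dox library, so they are not independent. The study had picked NOS2 for follow-up from genes lower in the knockout in these same libraries, by cutoffs like those used here. The calls of NOS2 therefore restate that choice and are no independent result. By quantitative PCR in independent experiments, the study also reported lower NOS2 mRNA in mammospheres of this line with the knockout. It further reported that added NOS2 did not restore the formation of mammospheres by knockout cells. Neither experiment is part of the libraries described here. The bound of NOS2 was -0.52, -1.73 and -1.04 in the same order, the first of which lay just past the cutoff. When all libraries were thinned to the smallest total, NOS2 kept 5 reads in gRNA2 and was no longer called against that library. In CTL+dox against CTL and in gRNA2 against CTL, 0 of the 8 genes were called lower, beside 0.112% and 0.362% of all genes. No gene of the 8 was called higher in any of the 5 comparisons. The shares of all genes called higher were 0.257%, 0.454% and 0.408% for gRNA2+dox against gRNA2, CTL+dox and CTL, 0.0592% for CTL+dox against CTL and 0.112% for gRNA2 against CTL.

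The counting interval of the log2 ratio left out 0 for 4 of the 8 genes in gRNA2+dox against gRNA2 (NOS2, ASS1, DDAH2 and ODC1), beside 31.0% of all genes tested. It did so for 4 against CTL+dox (NOS2, ASS1, DDAH1 and ODC1), beside 40.3%, and for 3 against CTL (NOS2, ASS1 and DDAH2), beside 33.3%. Without the knockout library, it left out 0 for 2 of the 8 genes in CTL+dox against CTL (DDAH1 and ODC1), beside 31.0%, and for NOS3 in gRNA2 against CTL, beside 31.5%. Many genes thus lay outside counting error also between libraries without the knockout. The median log2 ratio of the 8 genes was -0.03, -0.05, 0.07, 0.11 and 0.03 in the 5 comparisons, beside -0.02, 0.00, 0.01, 0.01 and 0.03 over all genes. In CTL+dox against CTL, all 8 ratios lay above 0, where 47.7% of all genes lay below 0. The ratio of ARG2 among them, 0.008, turned below 0 under 3 alternatives: DESeq2 size factors, total counts only and thinned libraries.

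Doxycycline was given to both arms, so the difference between its log2 ratio in the gRNA2 cells and its log2 ratio in the CTL cells sets the value in the knockout beside that of doxycycline alone. For NOS2 the difference was -4.66 with the prior count, and the upper end of its counting interval was -1.26. For ASS1 the difference was -0.22 (-0.31 to -0.13) and for DDAH1 -0.18 (-0.28 to -0.08), with the ratio above 0 in the CTL cells and below 0 in the gRNA2 cells for both genes. For ODC1 it was -0.23 (-0.49 to 0.02) and for NOS3 -0.26 (-0.73 to 0.21), intervals that include 0. ARG2 (0.01), DDAH2 (0.03) and ASL (-0.10) differed little. TCOF1 itself gave -0.76 (-0.97 to -0.56), with the ratio of CTL+dox to CTL at -0.58. The median over all genes was -0.02, and 6.66% of genes lay beyond a difference of 1 in either direction.

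The genes whose profile over the 4 libraries was most like that of NOS2 were TMEM100, DCP1B, SP5, HMGN5 and ARHGAP6. Likeness was the distance between log2 CPM centred on the mean of each gene, over 4 libraries, and was 0.299, 0.476, 0.532, 0.688 and 0.811. TMEM100 was counted with 36 reads in CTL and 48 in CTL+dox, against 25 in the gRNA2 library and 1 in gRNA2+dox. These genes had at most 48 reads in any library and 0 or 1 in the knockout library, which follows from their choice by likeness to NOS2. The order among them rests on few reads in each library.

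The wider pathway was described by 13 lists of genes, 94 in the tables, of which 81 had enough reads. None of the 81 was called lower in any comparison, beside 0.112% to 0.980% of all genes. In gRNA2+dox against gRNA2, 0 were called higher, beside 0.257%. At shares this small, few or none of 81 genes would be called. With CTL+dox as the reference, 1 gene was called higher, beside 0.454% of all genes. This was IRF1, which belongs to the 12 factors known to induce human NOS2. Of these factors 9 lay above 0 and 3 below 0 in gRNA2+dox against gRNA2, where 54.2% of all genes lay below 0. In gRNA2 against CTL, both without the knockout, 10 lay above 0 and 2 below 0, where 44.5% of all genes lay below 0. IRF1, an interferon-induced factor needed for NOS2 induction, was counted with 1026 reads in CTL and 1030 in CTL+dox, against 1597 in the gRNA2 library and 2059 in gRNA2+dox. Its log2 ratio was 0.62 to gRNA2, 1.04 to CTL+dox and 0.91 to CTL. Without the knockout, IRF1 was already at 0.29 in gRNA2 against CTL (0.17 to 0.40). The knockout library was thus the highest for IRF1 and the lowest for NOS2, and a link between the 2 genes was not tested.

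The genes that make and recycle tetrahydrobiopterin, the cofactor of nitric oxide synthases, had a median log2 ratio of -0.22 in gRNA2+dox against CTL+dox. Of them 7 of 7 lay below 0, beside 49.8% of all genes. None was called, beside 0.980% of all genes lower and 0.454% higher. Against gRNA2 the median was -0.09, with 6 of 7 below 0, beside 54.2% of all genes. Libraries without the knockout also differed. In CTL+dox against CTL the median was 0.18, with 1 of 7 below 0, beside 47.7% of all genes. In gRNA2 against CTL it was -0.11, with 5 of 7 below 0, beside 44.5%. The part of these differences in the values of the knockout library was not tested. GUCY1B3, a subunit of the guanylyl cyclase that senses nitric oxide, had the largest absolute ratio to gRNA2, -0.30, of the 6 genes of nitric oxide and cGMP signalling, whose median was -0.12. Among the partners of the synthases, NOS1AP, an adaptor of NOS1, had the largest ratio, 0.73, from 68, 62, 61 and 85 reads.

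Arginine transport was represented by 6 genes with enough reads, at a median of -0.01 against gRNA2 and -0.15 against CTL+dox. SLC7A7, a subunit of a cationic amino acid exporter, was counted with 30, 27, 33 and 12 reads, the fewest in the knockout library. Its log2 ratio to gRNA2 was -1.17 (-2.29 to -0.22), the largest of the 81 genes in that comparison, and its bound did not pass the cutoff. Of the mitochondrial steps of the urea cycle 3 genes had enough reads, and NAGS, which makes the activator of the first step, had a ratio of 0.93 from 29, 35, 21 and 34 reads. PRODH, which oxidises proline in mitochondria, was counted with 90, 79, 124 and 59 reads, at -0.81 to gRNA2.

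Downstream of ODC1, the 7 genes of polyamine synthesis and hypusination had medians of -0.02 and 0.02 against gRNA2 and CTL+dox. DHPS, the first enzyme of hypusine formation, had the largest ratio of them to gRNA2, 0.20. The 4 genes of polyamine breakdown had medians of 0.02 and 0.05. Of these, PAOX, an oxidase of acetylated polyamines, was counted with 54, 60, 42 and 24 reads, at -0.54 to gRNA2 (-1.34 to 0.20). Its ratio was -1.26 to CTL+dox (-2.02 to -0.57) and -1.25 to CTL, and it was not called in either comparison. Among the antizymes, which inhibit ODC1, OAZ3 was at -0.33. Of the creatine and agmatine genes GAMT, which methylates guanidinoacetate to creatine, was at -0.53, and of the protein arginine methyltransferases, which make the methylated arginines that the DDAH enzymes clear after proteolysis, PRMT9 was at 0.29. AGXT2, the other enzyme that clears methylated arginines, had too few reads to be counted.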

How the data were processed

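Per the labels and the study's methods, total RNA of 4 MDA-MB-468 mammosphere libraries was sequenced, and the authors trimmed reads with fastp, aligned them with STAR to hg38 and deposited raw counts of reads per gene. The annotation is not given in the sources used here. Unstranded counts were used, since the first strand held 49.0% to 49.1% of stranded reads, and STAR leaves out reads shared by overlapping or near-identical genes. The 4 leading rows, which name no gene, were left out. Genic reads made up 79.7% to 81.0% of reads.

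Counts were scaled by TMM (edgeR 4.0.16, R 4.3.3). Log2 ratios used a prior count of 0.5, with exact 95% Clopper-Pearson intervals. Of 26475 genes, the 15204 that reached 10 counts in 1 library or more were compared. Bounds for calls, after the study's cutoffs, came from gamma posteriors (count + 1, Python 3.11.15, scipy 1.17.1), since GFOLD, the authors' tool, was not available. They were tested on simulated data with counting error alone. Changes were set there only in genes with more reads than NOS2, so a change at the depth of NOS2 was not simulated. Intervals and floors cover counting error only, since reads lack molecular identifiers. With 1 library per condition no p-value is given.

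Named genes were the 10 members, TCOF1, the 5 genes closest to NOS2 and, per pathway list, each called gene or otherwise that with the largest absolute ratio of gRNA2+dox to gRNA2; some genes that this rule names are not reported here. Members and lists were chosen with earlier results of these data known. Gene positions and promoters came from RefSeq (GRCh38.p14), exon lengths from GENCODE 44 lifted to GRCh37. Alternatives were DESeq2 1.42.0 size factors and other filters, scalings, prior counts and bounds.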

Additional observations from a re-analysis of the deposited data

Results flagged for a closer look

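The log2 ratio of doxycycline had opposite signs in the CTL and gRNA2 cells for 4 of the 8 genes with enough reads, beside 43.9% of all genes tested, so the count is near that of all genes. The difference, gRNA2 minus CTL, was -4.66 for NOS2, which had 0 reads in gRNA2+dox, so that this value depends on the prior count and only the upper end of its counting interval (-1.26) is a bound. It was -0.26 for NOS3, with an interval of -0.73 to 0.21 that includes 0. It was -0.22 for ASS1 and -0.18 for DDAH1, with intervals that leave out 0. With 1 library per condition, none of these differences was tested across cultures.

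The columns that count reads by strand held reads that the unstranded column set aside as ambiguous, 219 more for NOS3 and 954 more for ARG2 over the 4 libraries. They came to 23.1% to 28.4% of the NOS3 reads of the stranded columns and to 15.6% to 19.1% of those of ARG2. NOS3 overlaps ATG9B and ARG2 overlaps VTI1B on the opposite strand. The libraries were not stranded, so the genes of each pair cannot be told apart in these reads. The other 8 genes had 0 such reads.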

How the results depend on the processing

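All 224 log2 ratios and differences of the 8 genes with enough reads under other scalings, prior counts and strand columns stayed within the counting interval of the reported value, and of 180 counts of calls 146 stayed within 1.5 times the reported one, 63 of them counts of 0 in both. Signs turned only for ratios near 0 of ASL, ARG2 and DDAH2. For NOS2 in the 3 comparisons with the knockout library the interval has no lower end, so staying within it says little. With a prior count of 5 the log2 ratio of NOS2 in gRNA2+dox was -1.36 to gRNA2, -2.15 to CTL+dox and -1.69 to CTL. With the prior count of 0.5 these values were -4.06, -5.14 and -4.54. Thinning to the smallest total left 0 of the 10 genes called lower against gRNA2, with 27 of all genes called lower. A minimum of 50 counts left out NOS2, so that 0 of the 10 genes were called lower in each of the 3 comparisons with the knockout library. In gRNA2+dox against gRNA2, the genes called lower numbered 17 with at least 50 counts, 112 with the bound at the 5% quantile and 308 by the log2 ratio alone, and those called higher 21, 82 and 218. Against CTL+dox, the same settings gave 97, 246 and 481 lower and 42, 130 and 301 higher. Against CTL, they gave 77, 212 and 453 lower, and the last 2 settings gave 104 and 270 higher. In CTL+dox against CTL, they gave 4, 74 and 261 lower and 1, 46 and 219 higher, and in gRNA2 against CTL 31, 119 and 319 lower and 5, 58 and 215 higher. These settings change how few reads or how loose a bound a call may rest on.

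No paired analysis was possible because there was 1 library per condition, which also left no replicate to leave out. Depth limits NOS1, ARG1 and NOS2, which had at most 3, 4 and 17 reads in any library.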

Other observations

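The 10, 17 and 9 reads of NOS2 in CTL, CTL+dox and gRNA2 divided into 3 and 7, 12 and 5, and 1 and 8 between the strand columns, whereas over all genes the first strand held 49.0% to 49.1%. The reads of NOS2 therefore came from both strand columns in each library that had any.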
